A study of Mus musculus with 30 samples.

Results

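Of the 151630 ATAC-seq peaks in the deposited peak set of mouse retinal ganglion cells, 21189 (14.0%) were annotated by the authors to the first intron of a transcript, and these peaks are described here across the days after optic nerve crush. A peak is a stretch of the genome that the ATAC transposase cut more often than its surroundings, a sign of open chromatin. Members were taken by their annotation alone: the text had to begin with Intron and to name intron 1 of a transcript. No count entered the choice. The gene of that transcript is called the host gene. Peaks within 2000 bp of an annotated start were classed by the authors as promoter and are not among the members, which lie 2001 to 374827 bp from the nearest start.

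A first intron is the intron that follows the first exon, so it begins close to a promoter. It is often the longest intron of a gene, and in many genes it holds enhancers, which are short regions bound by transcription factors that raise transcription from a distance, as well as alternative start sites. Enhancers open and close with cell state more readily than promoters do. Adult retinal ganglion cells, whose axons form the optic nerve, mostly fail to regrow a cut axon, and after crush they start a stress programme in which the kinases DLK and JNK act on transcription factors such as ATF3, ATF4 and JUN.

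The study asked how open chromatin and gene expression in these cells change in the days after the nerve is crushed. The cells came from C57BL/6 mice, retinas were taken apart with papain, and the cells were isolated by fluorescence-activated sorting. The labels used here name neither the sort marker nor the age, sex or number of animals. The ATAC groups were 6 libraries with no crush, called day 0, 3 at day 1 after crush and 6 at day 3 after crush. RNA-seq libraries of cells sorted in the same way were set beside them with 3 libraries each at days 0, 1 and 3, and the strain label of RNA day 0 replicates 2 and 3 reads C57BL/7 and C57BL/8. Nothing in the labels says that replicates came from separate animals, so a p-value measures the spread between these libraries, which may be technical.

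RefSeq start windows show where some of these peaks stand on a second start site. Among 32817 windows of 300 bases (250 before a RefSeq gene start and 50 after it, GRCm38.p6), 139 overlapped 128 first-intron peaks and 88 peaks held a whole window. Of those 88 peaks, 23 (26.1%) were higher and 10 (11.4%) lower on day 3 than on day 0 by the test described below, against 16.4% and 7.39% of all peaks. The 3 with the largest rise and the 3 with the largest fall are printed, chosen after their values were seen, as the RefSeq sequences of the regions that opened or closed the most. Bases are in lower case, 5′ to 3′ on the strand of the gene, and capitals mark every match on either strand to 1 of 14 motifs searched. Gm5546 lies at chr3:104360269-104360568 on the minus strand, Ahnak2 at chr12:112795693-112795992 on the minus strand and Gm38597 at chr19:56977551-56977850 on the plus strand, inside the first intron of Afap1l2. Gm46527 lies at chr15:84430566-84430865 on the plus strand inside the first intron of Shisal1, Gm29865 at chr3:131892848-131893147 on the plus strand and Vps37c at chr19:10700518-10700817 on the plus strand.
Gm5546: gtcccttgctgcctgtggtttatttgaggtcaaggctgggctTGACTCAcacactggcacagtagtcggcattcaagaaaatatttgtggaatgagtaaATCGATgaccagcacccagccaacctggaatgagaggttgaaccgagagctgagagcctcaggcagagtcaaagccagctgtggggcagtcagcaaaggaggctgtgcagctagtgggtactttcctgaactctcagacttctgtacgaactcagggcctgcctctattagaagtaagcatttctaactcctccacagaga
Ahnak2: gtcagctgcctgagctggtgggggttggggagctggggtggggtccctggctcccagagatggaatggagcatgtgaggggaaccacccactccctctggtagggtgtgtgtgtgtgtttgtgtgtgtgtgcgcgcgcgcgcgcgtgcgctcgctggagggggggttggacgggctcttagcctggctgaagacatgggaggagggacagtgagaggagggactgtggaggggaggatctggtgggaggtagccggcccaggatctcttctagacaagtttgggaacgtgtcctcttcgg
Gm38597: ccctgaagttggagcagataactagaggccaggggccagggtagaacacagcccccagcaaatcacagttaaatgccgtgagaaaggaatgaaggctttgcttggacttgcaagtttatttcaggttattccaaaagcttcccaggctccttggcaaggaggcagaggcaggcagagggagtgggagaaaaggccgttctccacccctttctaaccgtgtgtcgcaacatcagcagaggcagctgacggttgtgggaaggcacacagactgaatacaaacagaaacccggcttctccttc
Gm46527: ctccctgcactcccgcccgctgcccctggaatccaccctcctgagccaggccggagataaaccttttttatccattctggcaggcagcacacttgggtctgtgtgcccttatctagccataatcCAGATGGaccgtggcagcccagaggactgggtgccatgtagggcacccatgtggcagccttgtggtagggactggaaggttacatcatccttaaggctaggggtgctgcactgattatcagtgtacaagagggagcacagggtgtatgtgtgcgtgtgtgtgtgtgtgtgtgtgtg
Gm29865: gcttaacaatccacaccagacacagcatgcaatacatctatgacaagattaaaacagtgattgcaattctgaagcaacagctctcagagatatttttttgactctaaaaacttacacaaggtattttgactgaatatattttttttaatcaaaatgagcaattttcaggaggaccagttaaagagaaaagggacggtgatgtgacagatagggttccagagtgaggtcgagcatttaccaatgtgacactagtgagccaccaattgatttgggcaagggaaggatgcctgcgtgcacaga
Vps37c: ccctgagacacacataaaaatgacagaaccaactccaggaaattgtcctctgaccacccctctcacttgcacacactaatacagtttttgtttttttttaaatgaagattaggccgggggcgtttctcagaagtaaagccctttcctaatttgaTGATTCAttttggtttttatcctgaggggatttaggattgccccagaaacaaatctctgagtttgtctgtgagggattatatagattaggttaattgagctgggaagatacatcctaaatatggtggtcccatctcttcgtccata
In the Gm5546 window the capitals are TGACTCA, a match to the site TGANTCA of AP-1 (the dimer of Fos and Jun proteins), and ATCGAT, the core bound by ONECUT factors. The Gm46527 window holds CAGATGG, a proneural E-box, and the Vps37c window holds TGATTCA, again an AP-1 match. The AP-1 letters occur in 7.81% of all 32817 windows and in 10 of the 94 windows inside first-intron peaks (10.6%), ATCGAT in 0.926% and 1 of 94 (1.06%), and CAGATGG in 5.31% and 7 of 94 (7.45%). A match describes these letters and not a bound site.

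The Gm5546 peak held 3.26, 4.92, 6.17, 4.44, 5.26 and 6.99 counts scaled to library size (CPM) in the 6 day 3 libraries, against 0.994, 0.617, 1.54, 1.29, 1.31 and 1.57 CPM in the 6 day 0 libraries. The groups did not overlap, and the log2 fold change was 2.12 ± 0.209 (SE) with an adjusted p of 3.69e-07. The Ahnak2 peak, in a gene for a giant scaffold protein, held 19.7 to 34.3 CPM on day 3, against 6.14 to 11.5 CPM on day 0 (log2 fold change 1.62, adjusted p 3.65e-07). The Vps37c peak, in a gene for a subunit of the ESCRT-I sorting complex, held 13.7 to 19.3 CPM on day 3, against 19.9 to 34.2 CPM on day 0, again with no overlap (log2 fold change -0.70, adjusted p 0.00034).

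The libraries held 20006724 to 72579102 counts in peaks. Per the authors' covariate table they came in 2 batches: batch 2 holds all 3 day 1 libraries and 3 libraries each of days 3 and 0, and batch 1 holds the other 3 of each. Reads in peaks made up 32.2 to 49.6% of all reads on day 0, 15.7 to 18.6% on day 1, and on day 3 17.3 to 31.0% in batch 2 and 19.7 to 45.6% in batch 1. Day 1 and a low share of reads in peaks therefore cannot be told apart in batch 2. The RNA of 20 markers of retinal ganglion cells, among them Rbpms, Sncg, Thy1 and Slc17a6, summed to 16000 to 17900 CPM on day 0, 13000 to 14900 CPM on day 1 and 11500 to 12000 CPM on day 3. That of 14 rod genes summed to 289 to 1280 CPM on day 0, 974 to 1310 CPM on day 1 and 830 to 988 CPM on day 3. For 18 genes of microglia and macrophages the sums were 136 to 191, 195 to 688 and 272 to 285 CPM on days 0, 1 and 3. Bipolar genes went from 296 to 351 CPM on day 0 to 207 to 239 CPM on day 3. Amacrine and horizontal genes went from 1920 to 2150 CPM to 1180 to 1330 CPM. Mueller glia and astrocyte genes were also lower on day 3, and cone, vascular and oligodendrocyte genes overlapped day 0. In sorted bulk samples fewer cells of a type and less RNA per cell cannot be told apart.

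The first-intron peaks were spread over 5524 host genes, of which 2232 had 1 peak and 452 had 10 or more. Hosts with 10 or more held 8046 of the peaks. The median peak was 676 bp wide, lay 9834 bp from the nearest start and had a GC content of 47.4%, against 48.2% over all peaks. Protein-coding genes hosted 17936 peaks and long noncoding RNAs 1466. The host was also the nearest gene for 14580 peaks (68.8%), so for the rest the host named here is only the gene whose intron holds the peak. The host with the most peaks was Gm20388, a predicted locus whose 476 peaks span chr8:119960390-124291935 and have 106 different nearest genes. After it came Rora, a nuclear receptor gene, with 79 peaks, Cadm1, a synaptic adhesion gene, with 70, Asic2, an acid-sensing ion channel gene, with 55, and Frmd5 with 53. Every one of the 21189 peaks had at least 6 counts in every library, so all of them passed the filter on low counts and were tested. MACS2 had called 1568 of them (7.40%) in all 15 libraries and 1155 (5.45%) in no day 0 library.

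First-intron peaks took 5.14 to 5.71% of the peak counts of a day 0 library (5.4 ± 0.233%, SD, n = 6), 6.58 to 6.67% of a day 1 library (6.63 ± 0.0451%, n = 3) and 5.34 to 6.51% of a day 3 library (5.98 ± 0.530%, n = 6). All 3 day 1 libraries lay above all 6 of day 0, while day 3 overlapped day 0. The day 3 libraries fell in 2 sets: those with 17.3 to 19.7% of reads in peaks had 6.41 to 6.51% of their peak counts in first introns, and those with 31.0 to 45.6% of reads in peaks had 5.34 to 5.67%. Later introns followed, with 10.4 to 10.7% on day 1 against 8.69 to 8.96% on day 0 in batch 2, while promoters took 63.1 to 63.9% on day 1 against 67.4 to 68.6%. The share is a description without a test, and the part that the share of reads in peaks has in it was not tested.

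**Figure D1:**
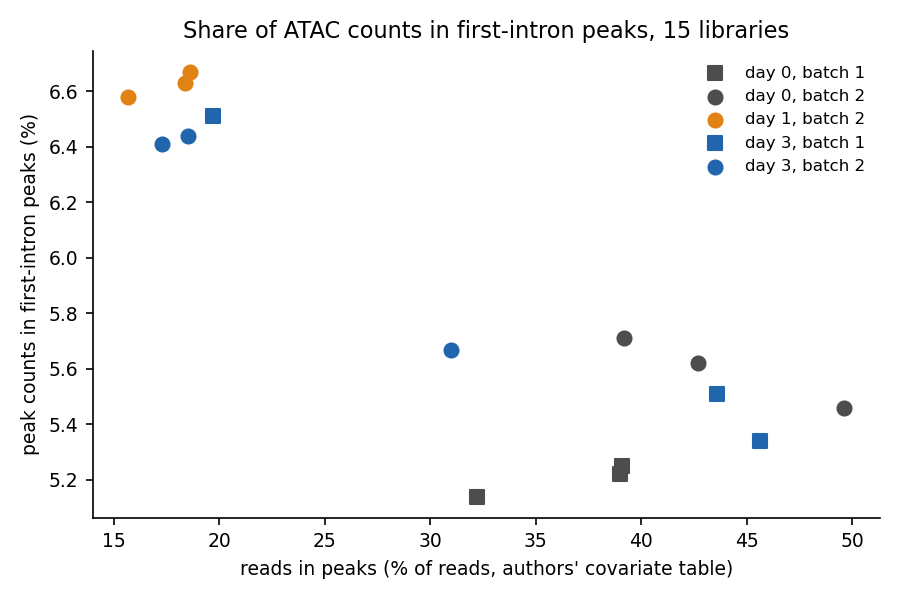
Percent of each library's peak counts that lie in first-intron peaks (vertical axis) against the percent of its reads that lie in peaks (horizontal axis), 1 point per ATAC library, coloured by day, with squares for batch 1 and circles for batch 2. The 3 day 1 libraries and the 3 day 3 libraries with 17.3 to 19.7% of reads in peaks lie at 6.41 to 6.67%, and the other 9 libraries lie at 5.14 to 5.71%.

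On day 3 the first introns held many more openings than closings. By edgeR's quasi-likelihood test over all 151630 peaks, with day and batch as terms, 3668 first-intron peaks (17.3%) were higher and 1301 (6.14%) lower on day 3 than on day 0 at an adjusted p under 0.05. Over all peaks 16.4% were higher and 7.39% lower, so the share of rises in first introns was near the background and that of falls somewhat under it. The median log2 fold change was 0.06 in first introns and 0.03 over all peaks. Among called members, 1197 (5.65%) rose by a factor of 2 or more and 22 (0.104%) fell by that factor, against 6.10% and 0.164% of all peaks. By annotation, first introns stood between promoters, of which 10.1% were higher and 8.97% lower, and distal intergenic peaks, of which 22.1% were higher and 6.87% lower, and close to later introns with 18.7% and 7.11%. Without the batch term 1636 (7.72%) were higher and 443 (2.09%) lower, against 7.16% and 2.38% of all peaks. With reads in peaks fitted as a covariate the counts were 2303 (10.9%) and 618 (2.92%), against 10.9% and 3.18%. With an added rule of no overlap between the days within either batch and a mean count of at least 20, 1682 members (7.94%) were higher and 476 (2.25%) lower, against 7.51% and 2.54% of all peaks. In data simulated with the same library sizes, the test recovered 88 of 100 peaks changed 2-fold and 27 of 100 changed 1.5-fold. Far fewer of the 151630 peaks were changed there than were called here, which makes the adjusted p stricter in the simulation. These shares therefore do not give the smallest change detectable in the real data, where most of the 3668 rises were under 2-fold.

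**Figure D2:**
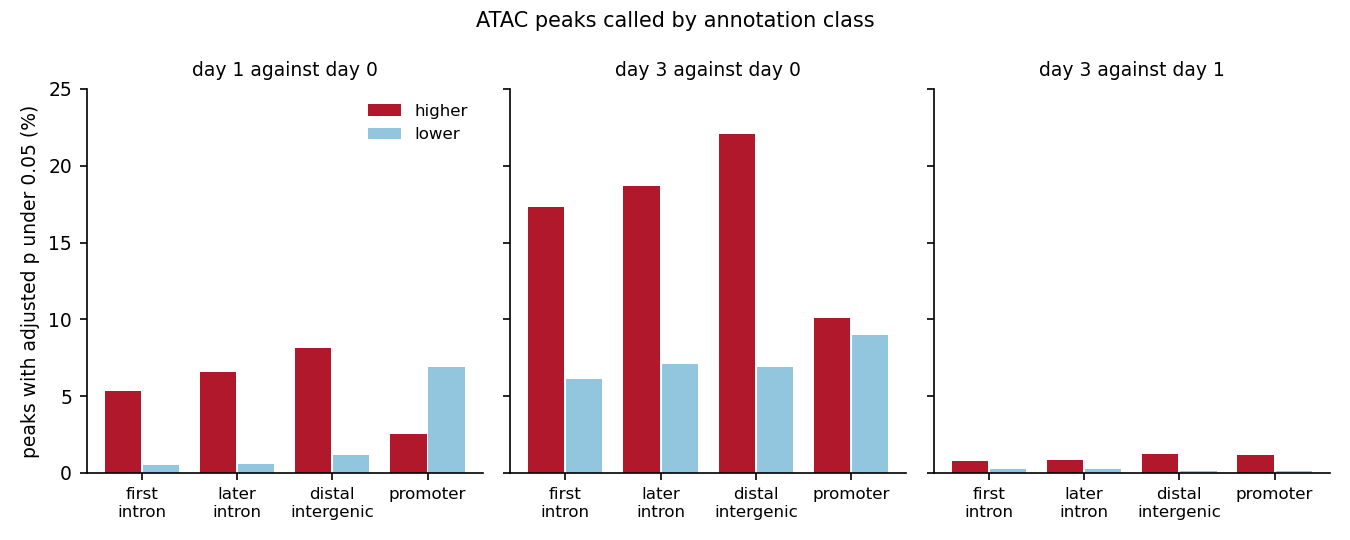
Percent of peaks called higher or lower (adjusted p under 0.05) in each annotation class, for day 1 against day 0, day 3 against day 0 and day 3 against day 1. In first introns 5.34% were higher and 0.477% lower on day 1, 17.3% and 6.14% on day 3, and 0.765% and 0.245% between day 3 and day 1; promoters had 6.90% lower on day 1.

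Batches 1 and 2 share no library, so each gives its own comparison of day 3 with day 0. Batch 2 alone called 3619 first-intron peaks (17.1%) higher and 2060 (9.72%) lower on day 3, against 16.8% and 12.5% of all peaks. Batch 1 alone called 880 (4.16%) higher and 78 (0.369%) lower, against 4.32% and 0.411%. Of the rises, 716 were called in both, which is 19.8% of those of batch 2 and 81.4% of those of batch 1. Of the falls, 60 were called in both, 2.91% of those of batch 2 and 76.9% of those of batch 1. Exactly 1 peak was called in opposite directions. Over the 21131 members tested in both, the log2 fold changes had a Pearson correlation of 0.57, given as a description since the peaks share libraries. In batch 1 without day 3 replicate 4, whose share of reads in peaks was 19.7%, the day 3 libraries had 43.6 and 45.6% of reads in peaks, against 32.2 to 39.1% on day 0, and 910 members (4.30%) were higher and 45 (0.212%) lower, against 4.54% and 0.271% of all peaks.

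**Figure D3:**
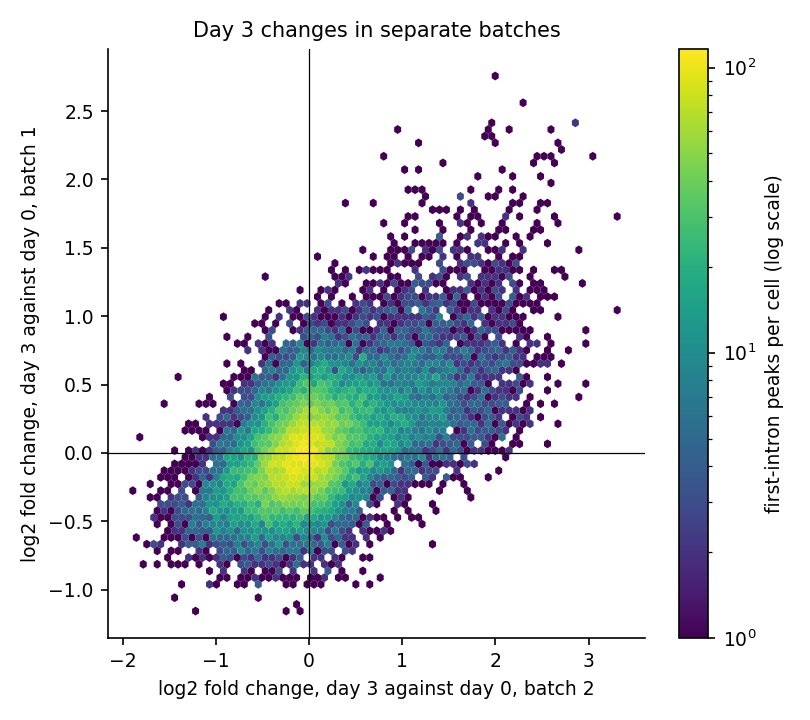
Log2 fold change of each of the 21131 first-intron peaks tested in both batches, day 3 against day 0, in batch 2 (horizontal) and batch 1 (vertical); colour gives the number of peaks per cell on a log scale. The cloud runs from lower left to upper right (Pearson correlation 0.57) and reaches further toward rises than toward falls.

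First-intron peaks far from a start were called higher more often than near ones. On day 3, 15.3% of the members under 10 kb from the nearest start were higher, 18.5% at 10 to 50 kb, 25.5% at 50 to 100 kb and 22.3% over 100 kb. On day 1 the shares in the same order were 3.78, 6.19, 10.9 and 13.6%. Falls on day 3 varied less, between 5.67 and 7.08%. Peak strength, the mean log2 CPM over all libraries, sorted the falls. With members in 4 equal classes of strength, 151 of the weakest (2.85%) and 635 of the strongest (12%) were lower on day 3. In these classes 768 and 1056 were higher. By the same bounds, falls went from 3.74 to 12.3% in later introns, 4.12 to 10.6% in distal intergenic peaks and 1.99 to 13% in promoters. Stronger peaks hold more counts, and the part of this in the calls was not tested. Peaks in long noncoding RNA hosts were higher in 23.1% of cases on day 3 and those in protein-coding hosts in 16.6%. These are counts within classes with no test between them.

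**Figure D4:**
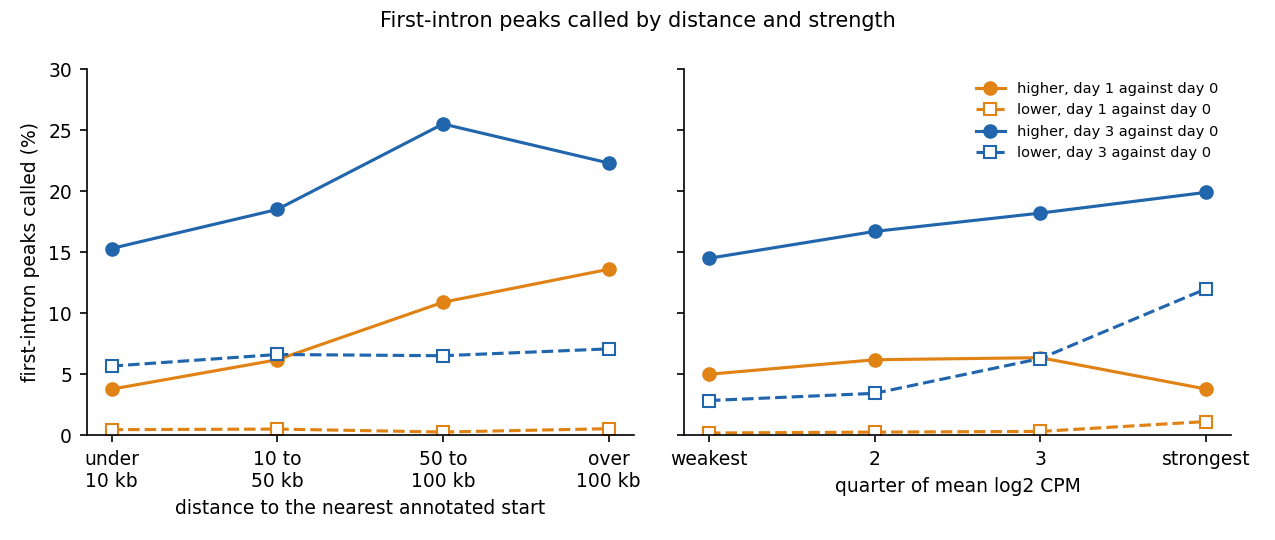
Percent of first-intron peaks called higher (filled circles, solid) or lower (open squares, dashed) on day 1 (orange) and day 3 (blue) against day 0, by distance to the nearest annotated start (left) and by 4 equal classes of mean log2 CPM (right). Rises on day 3 made up 15.3% under 10 kb and 25.5% at 50 to 100 kb, and falls on day 3 made up 2.85% of the weakest and 12% of the strongest class.

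The largest day 3 rise among members that passed the rule for named peaks was in intron 1 of Asic2, at chr11:81543272-81543657 (mm10). This peak had 2.37, 2.36, 3.97, 2.31, 3.59 and 3.37 CPM on day 3, against 0.361, 0.378, 0.361, 0.589, 0.625 and 0.524 CPM on day 0. On day 1 it held 1.32, 0.767 and 1.36 CPM. Every day 3 library was above every day 1 library and these were above every day 0 library. MACS2 had called it in 6 of 6 day 3 libraries and in 0 of 6 on day 0. The log2 fold change on day 3 was 2.69 ± 0.210 (6.44-fold, adjusted p 5.07e-08), with 2.39 in batch 1 and 2.87 in batch 2. Cdh13 and 1700060C16Rik came next with almost the same log2 fold change. The Cdh13 peak at chr8:118393624-118394898, in the gene of T-cadherin, a cadherin anchored to the membrane by a lipid, had 7.41, 11.9 and 17.3 CPM as lowest, median and highest value on day 3, against 0.855, 2.35 and 2.71 CPM on day 0. Its groups did not overlap either, and it was 6.36-fold higher (log2 2.67 ± 0.220, adjusted p 8.94e-08). The other named rises were in 1700060C16Rik (log2 2.68), 1700057H21Rik (2.67), AU017674 (2.52), Tiam2 (2.51), an activator of the small GTPase Rac, Gm4241 (2.47) and Gm42707 (2.46). In 1700060C16Rik, day 3 replicate 3 held 3.16 CPM and the other 5 day 3 libraries 0.812 to 1.30 CPM, against at most 0.368 CPM on day 0.

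The falls were smaller, and 4 of the 8 largest lay on the X chromosome. The peak in Mbtps2, the site-2 protease that releases membrane-bound transcription factors such as ATF6 and SREBPs, lies at chrX:157594271-157595391. It held 2.63, 2.44, 0.861, 2.51, 3.85 and 2.75 CPM on day 3, against 4.86, 5.79, 4.48, 6.41, 7.61 and 4.63 CPM on day 0. No day 3 library reached the lowest of day 0, and the log2 fold change was -1.17 ± 0.200 (0.443-fold, adjusted p 0.000177). Nox1, an NADPH oxidase, Dmd, which encodes dystrophin, and the predicted Gm14597 were the other 3 on the X, each with a log2 fold change of -1.12 or -1.13. Day 3 replicate 3 was the lowest day 3 library in all 4. Of the 237 members on the X, 36 were higher and 24 lower on day 3, with a median of -0.07, and over all X peaks of the series 10.1% were higher and 14.5% lower with a median of -0.15. The X took 0.963 to 1.15% of first-intron counts on day 0, 0.714 to 0.987% on day 1 and 0.743 to 1.08% on day 3. The mix of sexes in the libraries is not given in the labels and its part was not tested. Off the X, the falls were in Reln, an extracellular guide of neuron migration (-1.13), Gm5535 (-1.11), Gm12239 (-1.11) and Dlgap2, a scaffold of the postsynaptic density. Dlgap2 held 1.2, 2.88 and 4.17 CPM (lowest, median, highest) on day 3, against 4.77, 5.98 and 7.48 CPM on day 0, and fell by 1.09 ± 0.180 on the log2 scale (adjusted p 0.000109).

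**Figure D5:**
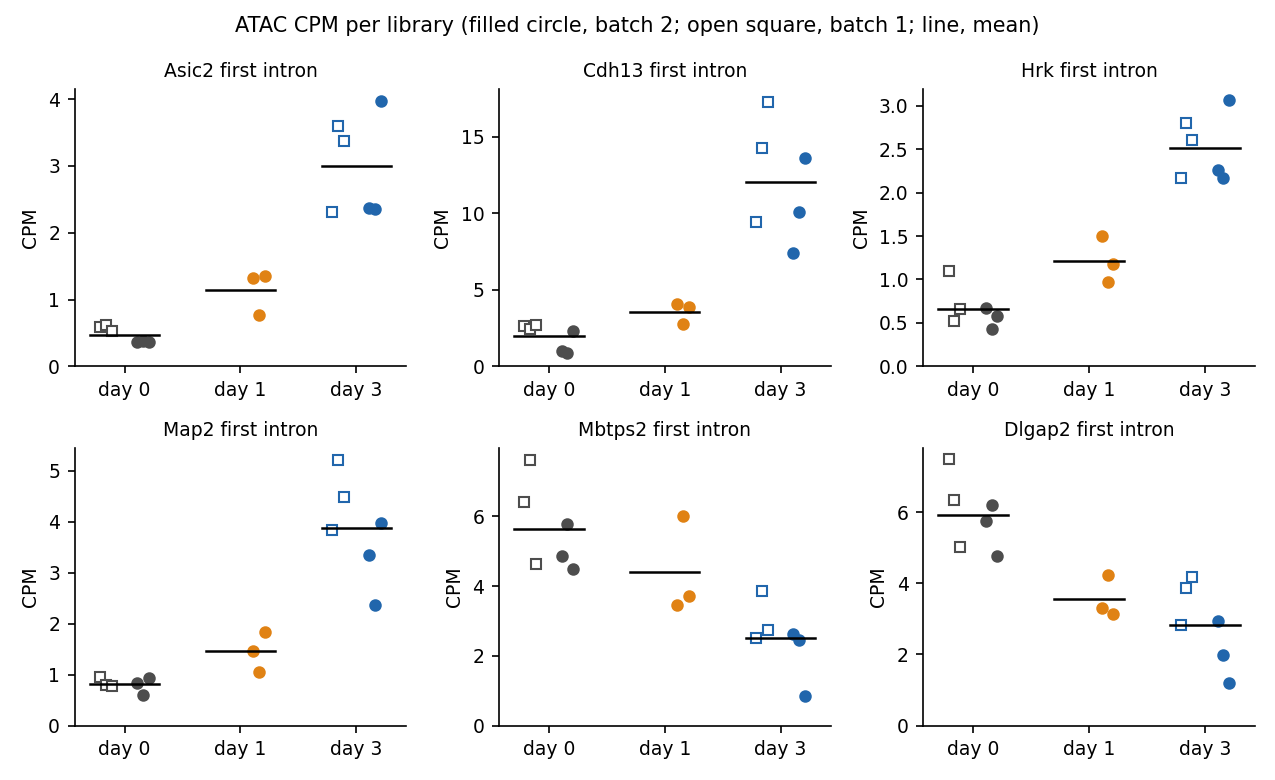
CPM of 6 named first-intron peaks in each ATAC library by day; filled circles are batch 2, open squares batch 1, and lines are group means. In Asic2, Cdh13, Hrk and Map2 all day 3 libraries lie above all day 0 libraries, and in Mbtps2 and Dlgap2 all lie below.

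The gene lists that follow are set beside all first-intron peaks, of which 17.3% rose and 6.14% fell on day 3 with a median log2 fold change of 0.06, and all peaks, with 16.4%, 7.39% and 0.03. Cell death genes had 24 first-intron peaks in 3 hosts, of which 5 (20.8%) rose and 1 (4.17%) fell on day 3 with a median of 0.14, near the share of all first-intron peaks. Hrk encodes Harakiri, a BH3-only protein that promotes apoptosis of injured neurons. Its peak at chr5:118180743-118181175 held 2.26, 2.17, 3.06, 2.17, 2.80 and 2.60 CPM on day 3, against 0.669, 0.434, 0.578, 1.10, 0.517 and 0.655 CPM on day 0. The lowest day 3 library lay above the highest of day 0, and the peak was 3.90-fold higher (log2 1.96 ± 0.190, adjusted p 3.85e-07). On day 1 it held 0.971 to 1.5 CPM, 2.01-fold over day 0 (adjusted p 0.0281). The RNA of Hrk held 156 to 206 CPM on day 3, against 1.79 to 2.87 CPM on day 0. Bcl2, which blocks apoptosis, had 16 peaks with 4 higher and 1 lower, and its named peak at chr1:106583167-106584324 was 2.03-fold higher on day 3 (adjusted p 0.000368), while Bcl2 RNA had a log2 fold change of -0.23 that did not pass (adjusted p 0.401).

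Among genes of axon injury and regeneration, 8 of 16 first-intron peaks (50%) rose on day 3 and 0 fell, with a median of 0.50, beside 17.3% and 6.14% of all first-intron peaks. All 3 peaks of Creb5, a CREB-family transcription factor, rose. The one at chr6:53294367-53295092 held 3.04, 2.56, 4.11, 2.51, 2.49 and 2.53 CPM on day 3, against 0.741, 0.645, 1.13, 1.69, 1.36 and 1.57 CPM on day 0 (log2 1.34 ± 0.210, adjusted p 8.19e-05). The groups did not overlap; within batch 1 the log2 fold change was 0.70 and did not pass alone (adjusted p 0.0819), and within batch 2 it was 1.89. Lif, a cytokine that promotes axon growth, had 1 peak, at chr11:4262968-4263768, with 3.78 to 6.60 CPM on day 3, against 1.40 to 3.06 CPM on day 0 (2.65-fold, adjusted p 7.93e-06). Of the 2 peaks of Atf3, a transcription factor induced in injured neurons, the named one at chr1:191189356-191190868 had 2.83 to 5.12 CPM on day 3, against 2.20 to 3.54 CPM on day 0. It overlapped between days and was 1.36-fold higher (adjusted p 0.0116), beside an Atf3 RNA of 450 to 529 CPM on day 3 against 2.24 to 4.44 CPM on day 0. Gap43, a growth cone protein, had 1 of 3 peaks higher (1.53-fold, adjusted p 0.00435). The only Klf7 peak had 0.288 to 0.861 CPM on day 3 and 0.416 to 0.742 CPM on day 0, with a log2 fold change of 0.06 that did not pass (adjusted p 0.885). Jun, Sox11, Ddit3, Klf6, Ecel1 and Sprr1a, which are widely used injury genes, hold no first-intron peak in this set. A gene without an intron can hold no member, and peaks classed as promoter are not members. The absence therefore does not describe how open the chromatin of these genes is.

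The integrated stress response is the pathway through which ATF4 raises amino acid and stress genes. Of 26 genes on its list, only Slc3a2 and Sesn2 hold a member, 1 each. Of all 13737 genes with RNA tested, 3763 host a member. Peaks within 2000 bp of a start are not members, so this count does not describe how open the genes of the pathway are. Slc3a2, a subunit of amino acid transporters, had 5.65 to 8.19 CPM on day 3 and 4.71 to 8.40 CPM on day 0 with a log2 fold change of -0.09 (adjusted p 0.631). Sesn2, a sensor of leucine, had 0.273 to 0.853 CPM on day 3 and 0.331 to 0.952 CPM on day 0 (log2 -0.10, adjusted p 0.847). Neither passed, and the sign of both turned in some settings. The RNA of 25 of the 26 genes was higher on day 3. In the list of DLK and JNK signalling, 9 of 42 peaks (21.4%) rose and 3 (7.14%) fell with a median of 0.20, close to the 17.3% and 6.14% of all first-intron peaks. Nmnat2, which makes NAD in axons and keeps them alive, carried 4 of those rises and 2 of the falls in 14 peaks. Its peak at chr1:153039829-153041081 had 7.64, 9.42 and 12.7 CPM (lowest, median, highest) on day 3, against 2.78, 4.14 and 7.33 CPM on day 0, with no overlap (2.29-fold, adjusted p 6.46e-06), while Nmnat2 RNA fell by 0.57 ± 0.100 on the log2 scale. Dusp16, a phosphatase that acts on JNK and p38, had 3 of 7 peaks higher.

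In axon guidance genes, 53 of 174 first-intron peaks (30.5%) in 22 hosts rose on day 3 and 4 (2.30%) fell, and 30 (17.2%) rose on day 1 and 0 fell, beside 17.3% and 6.14% on day 3 and 5.34% and 0.477% on day 1 among all members. The median log2 fold change of the list was 0.23 on day 3 and 0.44 on day 1. Hosts are named for the number of calls they held, after the values were seen. The netrin receptor gene Unc5c had 12 of 18 peaks higher on day 3, Unc5b 4 of 6, and Unc5d 4 of 19. Another netrin receptor gene, Dcc, had 0 of 6 higher and 1 lower, and Unc5a, which is not on the list, had 0 of 14 higher and 4 lower. The semaphorins Sema3e and Sema5a had 5 of 5 and 5 of 8, and the slit receptor Robo1 had 6 of 15, while Robo2 had 0 of 2 higher and 1 lower, and 0 of 2 peaks of Slit1 and 0 of 1 of Slit3 were called. Ephb1, an ephrin receptor, had 4 of 6 higher and Efna5, an ephrin, 4 of 28. Peaks of 1 gene are not independent of each other. The Sema3e peak at chr5:14030772-14031217 had 1.11, 2.44, 2.06, 1.57, 1.57 and 2.06 CPM on day 3, against 0.325, 0.210, 0.409, 0.331, 0.517 and 0.262 CPM on day 0. Day 1 lay between with 0.587 to 1.26 CPM. The groups did not overlap (5.28-fold on day 3, adjusted p 6.90e-07). The Unc5c peak at chr3:141593226-141594087 had 2.71 to 4.27 CPM on day 3, against 0.603 to 2.18 CPM on day 0 (2.95-fold, adjusted p 1.26e-05). Of all 31 genes of the list with RNA tested, with or without a first-intron peak, 4 were higher and 19 lower on day 3. Over all 13737 genes 20.4% were higher and 20.1% lower. Among hosts of rising peaks, RNA fell in Sema3e (log2 fold change -0.83) and Unc5c (-0.86) and rose in Unc5b (1.13, adjusted p 0.0385).

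Cytoskeleton and transport genes had 19 of 102 first-intron peaks (18.6%) higher and 5 (4.90%) lower on day 3 with a median of 0.11, near the 17.3% and 6.14% of all first-intron peaks. Map2 encodes a microtubule-associated protein of dendrites, and its peak at chr1:66244863-66245367 held 3.34, 2.36, 3.97, 3.84, 5.21 and 4.49 CPM on day 3, against 0.831, 0.603, 0.939, 0.958, 0.789 and 0.786 CPM on day 0. Day 0 libraries were all under 1 CPM and day 3 libraries all over 2, a 4.66-fold difference (log2 2.22 ± 0.180, adjusted p 8.94e-08), with 2.41 in batch 1 and 1.96 in batch 2. The peak in Ank2, an ankyrin that links membrane proteins to spectrin, at chr3:127340764-127342007, had 6.52 to 11.5 CPM on day 3, against 1.70 to 4.86 CPM on day 0 (3.25-fold, adjusted p 6.17e-07), while Ank2 RNA had a log2 fold change of -0.04.

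Synapse and adhesion genes held the most listed peaks, 314 in 26 hosts, and 61 of them (19.4%) rose and 30 (9.55%) fell on day 3, with a median of 0.02, near the 17.3% and 6.14% of all first-intron peaks. Sdk2, an adhesion protein of specific retinal synapses, had 10 of 24 higher and 3 lower, Cdh13 6 of 11 higher and 1 lower, and the neuroligin Nlgn1 4 of 4 higher. The cell adhesion gene Ntm had 11 of 40 lower and 6 higher, and Cadm2 5 of 28 lower and 1 higher. The Cadm1 peak at chr9:47589346-47590467 had 4.62, 5.88 and 7.69 CPM (lowest, median, highest) on day 3, against 1.66, 2.05 and 2.89 CPM on day 0, and was 2.77-fold higher with no overlap (adjusted p 6.99e-07). Ion channel genes had 21 of 184 peaks (11.4%) higher and 22 (12%) lower and a median of -0.13, beside 17.3%, 6.14% and 0.06. Kcnma1, the BK potassium channel, had 7 of 33 peaks lower and 2 higher. The Kcnma1 peak at chr14:23706253-23707450 had 1.53 to 4.30 CPM on day 3, against 4.93 to 7.77 CPM on day 0 (0.503-fold, adjusted p 0.000169), although Kcnma1 RNA was higher on day 3 (log2 0.63). Kcnip1, a calcium-binding partner of Kv4 channels, had 6 of 31 peaks higher and 2 lower, and its peak at chr11:33882830-33883222 was 3.22-fold higher (adjusted p 3.23e-06).

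Growth factor and cytokine receptors had 24 of 103 first-intron peaks (23.3%) higher and 6 (5.83%) lower on day 3 with a median of 0.13, beside 17.3% and 6.14% of all first-intron peaks. The peak of Osmr, the oncostatin M receptor, at chr15:6861669-6862000, had 1.07 to 1.96 CPM on day 3, against 0.361 to 0.786 CPM on day 0, with no overlap (3.17-fold, adjusted p 2.06e-06), and was 2.30-fold higher already on day 1 (adjusted p 0.0131). Fgf12, on the same list, is an intracellular protein that binds sodium channels and not a receptor. Its peak at chr16:28491362-28492347 was 2.69-fold higher (adjusted p 4.92e-05), with 3.41 to 6.97 CPM on day 3, against 0.849 to 4.60 CPM on day 0. Bdnf, a neurotrophin that was on the list of immediate early genes, had a peak at chr2:109696798-109697686 that was 1.85-fold higher on day 3 (adjusted p 0.00139), and Bdnf RNA was higher too (log2 1.24 ± 0.120).

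Genes that mark retinal ganglion cells were followed in 2 lists. Of 35 peaks in 6 transcription factor genes, 10 (28.6%) rose and 1 (2.86%) fell on day 3 with a median of 0.08, and of 30 peaks of identity markers 6 (20%) rose and 2 (6.67%) fell with a median of 0.13, beside 17.3% and 6.14% of all first-intron peaks. Of the 6 transcription factor hosts, Myt1l and Foxp2 had lower RNA on day 3 and held 1 rise each. Foxp1, with 5 of 22 peaks higher, had an RNA log2 fold change of 0.12 that did not pass (adjusted p 0.485), and Onecut2, with 2 of 5 higher, had higher RNA (0.28, adjusted p 0.034). Scn4b, a sodium channel beta subunit, had a peak at chr9:45140846-45141347 with 1.56, 1.83, 3.16, 1.67, 2.10 and 2.06 CPM on day 3, against 0.596, 0.505, 0.529, 0.921, 1.01 and 1.70 CPM on day 0. It was 2.52-fold higher (adjusted p 0.000482) with 1 overlapping day 0 library, while Scn4b RNA held 0.376 to 2.18 CPM on day 3, against 17.2 to 29.9 CPM on day 0. Syt2, a synaptotagmin of fast synapses, had 3 of 13 peaks higher and 2 lower, and its peak at chr1:134681861-134683068 had 2.54 to 5.45 CPM on day 3, against 5.46 to 8.58 CPM on day 0 (0.571-fold, adjusted p 0.00049), beside RNA that fell by 2.22 ± 0.240 on the log2 scale. Rbpms, the RNA-binding protein used to mark these cells, had 1 of 6 peaks higher (1.68-fold, adjusted p 0.0141). The Onecut2 peak at chr18:64362016-64362769, in a homeobox gene of retinal neurons, was 3.65-fold higher (adjusted p 9.85e-06) with 4.11 to 7.07 CPM on day 3, against 0.533 to 3.43 CPM on day 0, and Myt1l, a neuronal zinc finger gene, had a peak 1.74-fold higher (adjusted p 0.00017).

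First introns of genes that mark other cell types were followed as well. Vascular genes had 14 of 29 peaks (48.3%) higher on day 3 and 0 lower, beside 17.3% and 6.14% of all first-intron peaks. The 14 include all 8 peaks of 1 host, Flt1, a VEGF receptor, and 2 of 3 of Pdgfrb, while 0 of 5 in Pecam1, an endothelial adhesion gene, were called. The Flt1 peak at chr5:147706179-147708254 had 4.44 to 9.38 CPM on day 3, against 1.58 to 3.05 CPM on day 0 (2.70-fold, adjusted p 2.36e-05). The summed level of the 29 peaks was 53.6 to 105 CPM on day 0, 78.6 to 106 CPM on day 1 and 105 to 137 CPM on day 3. The RNA of the 5 vascular genes measured summed to 6.61 to 11.9 CPM on day 0, 7.87 to 13.6 CPM on day 1 and 5.09 to 6.79 CPM on day 3, and 0 of the 5 were called on either day. Nfib, the only gene of the list for Mueller glia and astrocytes with members, had 7 of 15 (46.7%) higher and 0 lower on day 3. The RNA of Nfib itself had a log2 fold change of 0.48 on day 3 that did not pass (adjusted p 0.154). Summed over 16 genes of that list, RNA was 894 to 1150 CPM on day 3, against 1820 to 2020 CPM on day 0. For rods 1 of 6 peaks rose and 1 fell (Pde6b and Rp1), for bipolar cells 2 of 14 rose and 2 fell, for cones 1 of 10 each way, for amacrine and horizontal cells 0 of 5 passed, for microglia 0 of 3, and for oligodendrocytes 1 of 8 each way. The part that other cells have in these peaks was not tested.

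Day 1 gave fewer calls, nearly all of them rises. In first introns 1131 peaks (5.34%) were higher and 101 (0.477%) lower on day 1 than on day 0, against 5.44% higher and 2.40% lower over all peaks, and the median was 0.14 against 0.06. With the replicate number as a block, since same-numbered libraries of days 1 and 0 deviated together, 643 (3.03%) were higher and 40 (0.189%) lower, against 3.29% and 0.803% of all peaks. These counts hang on single libraries: without day 0 replicate 1, 2 or 3 there were 129, 598 and 356 higher and 5, 41 and 9 lower, and without day 1 replicate 1, 2 or 3 there were 520, 48 and 40 higher and 9, 0 and 4 lower, the 0 beside 3859 members at an unadjusted p under 0.05. Leaving out day 0 replicate 6, or day 3 replicates 2, 3, 4 or 6, gave 203, 174, 223, 243 and 218 lower. With no batch term 0 were called in either direction, and 1823 members had an unadjusted p under 0.05. In batch 2 alone 3051 (14.4%) were higher and 1110 (5.24%) lower, against 14.6% and 12.4% of all peaks. With reads in peaks fitted as a covariate 102 were higher and 4 lower, and DESeq2 called 369 lower. No day 1 library lies in batch 1, so the fall in reads in peaks and day 1 cannot be told apart.

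Among the named day 1 rises was the peak of 1700007H22Rik at chr16:86143728-86144277. It held 1.08, 1.2 and 1.11 CPM on day 1, against 0.140, 0.368 and 0.810 CPM as lowest, median and highest value on day 0. The groups did not overlap, the log2 fold change was 1.92 ± 0.340 (adjusted p 0.00788), and on day 3 the peak held 1.00 to 2.30 CPM. In Fam189a1, at chr7:65104308-65104621, the 3 day 1 libraries held 1.05, 1.02 and 1.11 CPM, against 0.193 to 0.598 CPM on day 0 (3.07-fold, adjusted p 0.00836). A430048G15Rik at chr2:133443561-133444085 was 2.88-fold higher on day 1 (adjusted p 0.00898) and 4.97-fold higher on day 3 (adjusted p 2.84e-07). Of the 8 largest day 1 falls, Pparg is the gene of a nuclear receptor of lipid metabolism. Its peak at chr6:115375092-115375906 held 1.02, 0.993 and 1.01 CPM on day 1, against 2.33, 1.67 and 2.14 CPM on day 0 in batch 2 and 0.589, 0.734 and 0.437 CPM on day 0 in batch 1. Day 1 thus lay under the day 0 libraries of its own batch and above those of the other (log2 fold change -1.12 ± 0.240, adjusted p 0.0143), and Pparg RNA was higher on day 1 (log2 4.83, adjusted p 0.0069), with 0 to 0.0778 CPM on day 0. The same order of day 0 batches was seen in Armc8, Gm47849, 8030442B05Rik, Fam111a, Siah3 and Enox1.

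Between days 3 and 1 few members differed: 162 (0.765%) were higher and 52 (0.245%) lower on day 3 than on day 1, against 0.987% and 0.193% over all peaks, and the median was -0.05 against 0.01. Leaving out day 1 replicate 1 or replicate 2 gave 0 in both directions, with 3079 and 2437 members at an unadjusted p under 0.05, and with no batch term 0 were called, with 2346 members at an unadjusted p under 0.05. Of the day 0 libraries, leaving out replicate 2, 3, 5 or 6 gave 327, 69, 84 and 274 higher with 238, 7, 10 and 152 lower, and leaving out replicate 1 or 4 gave 26 and 88 lower. Without day 1 replicate 3 there were 19 lower. Without day 3 replicate 1, 4 or 5 there were 83, 315 and 104 higher with 16, 151 and 16 lower, and without replicate 2, 3 or 6 there were 17, 18 and 15 lower. In batch 2 alone 1036 were higher and 879 lower. Plcxd2, a phospholipase-like gene, had the largest rise, at chr16:45986179-45986441. Its peak held 1.96, 3.17, 2.77, 1.84, 2.59 and 3.03 CPM on day 3, against 0.900, 0.655 and 1.04 CPM on day 1 (3.36-fold, adjusted p 0.0157), and day 0 held 0.221 to 0.890 CPM. The peak of Ppp3r1, the regulatory subunit of calcineurin, at chr11:17176696-17176960, had 1.60 to 2.30 CPM on day 3, against 0.720, 0.722 and 0.904 CPM on day 1 (2.86-fold, adjusted p 0.0164). Falls were led by Dlgap4 (0.428-fold, adjusted p 0.0488) and Mgat3, a glycosyltransferase (0.444-fold, adjusted p 0.0282). The Mgat3 peak at chr15:80202113-80202662 held 0.853, 0.648 and 0.909 CPM in the batch 2 libraries of day 3, against 1.47, 2.10 and 2.23 CPM on day 1. Those of batch 1 held 1.67, 1.13 and 1.96 CPM on day 3, within the day 1 range for 2 of the 3.

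The RNA of host genes was set beside the peaks, from separate libraries. Of the 3763 hosts with RNA tested, 818 (21.7%) were higher and 1045 (27.8%) lower on day 3, against 20.4% and 20.1% of all 13737 genes, and 265 were higher and 291 lower on day 1, against 5.93% and 5.45% of all genes. Without RNA day 1 replicate 1 the day 1 count of higher hosts was 161, and without replicate 3 that of lower hosts was 165. Of the 1289 hosts of a rising peak, 21.7% had higher and 31.2% lower RNA on day 3, and of the 674 hosts of a falling peak 18.2% and 39.6%. These 2 groups of hosts overlap, since 276 hosts held both a rising and a falling peak. Seen from the RNA, 16.8% of the 3638 peaks in hosts with higher RNA were higher and 5.61% lower on day 3. Of the 5682 peaks in hosts with lower RNA, 15.6% were higher and 7.51% lower. Asic2, with the largest rise in its intron, had 20.5 to 25.1 CPM of RNA on day 3, against 73 to 101 CPM on day 0 (log2 fold change -1.90 ± 0.140, adjusted p 9.88e-09). Dlgap2, whose intron peak fell, had 22.8 to 30.3 CPM of RNA on day 3, against 4.63 to 9.74 CPM on day 0 (2.03 ± 0.260, adjusted p 6.50e-06), and Mbtps2 RNA was higher too (0.62, adjusted p 0.000292). Hrk and Creb5 rose in both measures.

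The authors' deposited footprint tables list sites of 4 injury factors whose footprint score rose on both days with libraries pooled. They come from the same libraries and hold no site that fell, so they are a description. An ATF3 site lay in 1775 first-intron peaks, of which 799 (45%) were higher and 39 (2.20%) lower on day 3, against 14.8% and 6.50% of the 19414 without one. ATF4 sites lay in 580 (40.7% higher), CEBPG sites in 870 (38.5%) and DDIT3 sites in 608 (40.5%). The peaks with an ATF3 site were also stronger, with a median of 125 counts per library against 58.1, and strong peaks were called more often. Asic2, Cdh13, Hrk and Creb5 held a listed site in the peaks described above, and Mbtps2 and Dlgap2 did not. In the authors' deposited comparison table, which has its own model, 2495 first-intron peaks were higher and 1632 lower on day 3 and 326 higher and 409 lower on day 1. Over all 151630 peaks the authors' deposited table has 17836 higher and 12985 lower on day 3 and 2520 and 3253 on day 1, so falls outnumbered rises on day 1 there in first introns as in all peaks. The authors' deposited table of links from distal peaks to genes held 10742 of the members (50.7%) in 19680 links, of which 0 were to the peak's own host gene. It holds no correlation below 0 (lowest 0.000131), and how its pairs were chosen was not examined. The absence of host genes therefore does not show how a peak and its host gene change together.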

How the data were processed

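ATAC-seq and RNA-seq libraries of sorted mouse retinal ganglion cells were analysed from deposited files. Per the submitters' processing notes, the ATAC files were made on GRCm38 (mm10), and the tools named for them are Bowtie2, DESeq2, featureCounts, Subread, MACS2, ChIPseeker, bedtools, Trim Galore, FastQC, Picard and SAMtools. For RNA the notes name STAR, HTSeq, Picard and edgeR on mm10, with no versions or parameters. The authors deposited raw counts per peak and per gene as whole numbers. Other values deposited by the authors are log2 fold changes with p-values from their comparison tables, footprint scores with libraries pooled, the MACS2 peak calls of each library with a fold enrichment ratio, correlations of distal peaks with genes, and covariates in which the reads in peaks and the GC content are a fraction. Of 15 labelled RNA samples, 13 had counts. The description label of the ATAC samples names a peak file of another group than the title, and titles and treatment labels were used.

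Counts were fitted in edgeR 4.0.16 (R 4.3.3) with TMM scaling, filterByExpr, a term each for day and batch and a two-sided quasi-likelihood test, in 1 fit of all 15 ATAC libraries over 151630 peaks. RNA was fitted with day as the only term over 13737 genes, from libraries of 19024286 to 27561352 counts. Adjusted p is by Benjamini and Hochberg over the whole table with a threshold of 0.05. The SE was taken as the size of the log2 fold change over the root of its F statistic. CPM was scaled by edgeR, and a prior count of 2 entered log2 CPM only. The test was tried on simulated data. Same-numbered day 1 and day 0 libraries deviated together (correlations 0.120, 0.118 and 0.223 of deviations from group means, each over 0.1), so the blocked counts stand beside the day 1 result. In the other 2 sets of pairs the correlations were not all over 0.1. They ran from -0.207 to 0.191 for days 3 and 0, and from 0.0177 to 0.111 for days 3 and 1.

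Named peaks were, per comparison, the 8 largest rises and 8 largest falls that passed, averaged 20 counts or more and had days that did not overlap within a batch. To these came up to 2 per gene list with the smallest adjusted p, and 1 for each of 14 chosen genes that had members, 86 in all; other items are not reported here. There were 20 gene lists. Members, lists and tests were chosen with earlier results of these data known. Host symbols came from an Ensembl gene table for 21181 of 21189 peaks, and biotypes and sequences from RefSeq (GRCm38.p6). No genome was at hand, so the planned motif classes within peaks were not made. None of 1005 miRNA hairpins overlapped a member. Alternatives were DESeq2 1.42.0, its size factors, library size only, other filters, a fold of at least 2, no batch term, single batches, reads in peaks or replicate number as a covariate, only the groups compared, removal of trends with strength (lowess span 0.3), and each library left out. Removal of the trend with GC content and batch 1 without day 3 replicate 4 were chosen after seeing the data.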

Additional observations from a re-analysis of the deposited data

Results flagged for a closer look

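In 13 of 178 groups of 6 libraries tested, 1 library lay far from the other 5 by Dixon's criterion, which chance gives in about 1 of 20 groups. On day 0 the highest library held 1.27 CPM at the Gm2619 peak 5970 bp from a start, 2.36 at Gm49692, 0.698 at 4930556G22Rik, 1.10 at Hrk and 5.71 at the Bdnf peak 2329 bp from a start, where the next library held 0.435, 0.994, 0.380, 0.669 and 2.75 CPM. On day 3 the highest library held 3.16 CPM at 1700060C16Rik, 4.11 at Creb5, 8.19 at Slc3a2 and 3.16 at Scn4b, with next values of 1.30, 3.04, 6.46 and 2.10 CPM. On day 3 the lowest library held 0.287 CPM at Nox1, 1.07 at Osmr, 3.41 at Fgf12 and 3.52 at the Grik1 peak 56405 bp from a start, with next values of 1.03, 1.64, 5.84 and 5.71 CPM.

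The changes at day 3 and day 1 differed from each other at 162 first-intron peaks that were higher and 52 that were lower on day 3 than on day 1, by edgeR's test of that difference. Both counts were 0 without day 1 replicate 1 or without day 1 replicate 2.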

How the results depend on the processing

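Day 3 rises kept their number within 1.5 times except where given, and day 1 and day 3 against day 1 did not. A fold of at least 2 left 345 higher and 6 lower on day 1, 1197 and 22 on day 3, and 71 and 11 for day 3 against day 1. The 14580 peaks whose host is the nearest gene, a subset of the 21189 in the same fit, held 722 of the rises on day 1. That is 4.95% of them, against 5.34% of all members. They held 853 of the falls on day 3 (5.85%, against 6.14%) and 25 of those for day 3 against day 1 (0.171%, against 0.245%). No batch term gave 0 and 0 on day 1 (1823 at an unadjusted p under 0.05), 1636 and 443 on day 3, and 0 and 0 for day 3 against day 1 (2346). Batch 2 alone gave 3051 and 1110 on day 1, 2060 lower on day 3, and 1036 and 879 for day 3 against day 1; batch 1 alone gave 880 and 78 on day 3, and 910 and 45 without day 3 replicate 4. Only the groups compared gave 2701 and 1092 on day 1, and 973 and 890 for day 3 against day 1. DESeq2's size factors gave 231 lower on day 1. Library size alone gave 3849 and 18 on day 1, and 88 and 491 for day 3 against day 1. Removing the trend with strength gave 257 higher on day 1, 1962 lower on day 3 and 111 lower for day 3 against day 1, and removing that with GC content 220 lower on day 1 and 89 lower for day 3 against day 1. Reads in peaks fitted as a covariate gave 102 and 4 on day 1, 2303 and 618 on day 3, and 475 and 517 for day 3 against day 1. DESeq2 gave 369 lower on day 1, and 500 and 269 for day 3 against day 1. The replicate block gave 643 and 40 on day 1. Same-numbered libraries of day 3 did not all deviate together with those of day 0 or day 1. There the block gave 3460 and 1149 on day 3 against day 0, and 117 and 11 for day 3 against day 1. In RNA it gave 262 and 283 hosts on day 1, and 809 and 1038 on day 3. A fold of at least 2 and the nearest-gene subset can only lower a count. The cause of the other moves was not tested.

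Leaving out 1 library at a time gave 40 to 1651 higher and 0 to 243 lower on day 1, 3050 to 3992 and 895 to 1639 on day 3, 0 to 327 and 0 to 238 for day 3 against day 1, and for host RNA on day 1 161 to 245 higher and 165 to 318 lower.

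The day 3 median turned to -0.03 with the strength trend removed, -0.01 with reads in peaks as a covariate and -0.02 in batch 1 without day 3 replicate 4, and that of day 3 against day 1 to 0.02 with the share of reads in peaks. Gm2619 (5970 bp from a start) and Gm49692 turned to -0.02 and -0.11 on day 1 with the share of reads in peaks. On day 3 Slc3a2 turned to 0.04 in batch 1, 0.10 without replicate 4 there and 0.03 with the share of reads in peaks. Sesn2 turned to 0.14 in batch 2, 0.13 without day 0 replicate 5 and 0.05 without day 3 replicate 6, with a lowest value of -0.24 without day 3 replicate 1. Spi1 turned to -0.08 with the share of reads in peaks and -0.39 in batch 1 without replicate 4. Klf7 turned to -0.10 in batch 1, -0.32 there without replicate 4, -0.08 with the strength trend removed, -0.23 with the share of reads in peaks, and -0.03, -0.06 and -0.02 without day 0 replicate 1, day 3 replicate 3 and day 3 replicate 4, with a highest value of 0.21 without day 3 replicate 5. None of these peaks passed on day 3 except Gm49692. Of the called named peaks, 30 of 52 on day 3 passed in every setting run and 50 of 52 whichever 1 library was left out, against 0 and 2 of 16 on day 1, and 0 and 0 of 16 for day 3 against day 1.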

Other observations

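Day 1 in batch 2 and day 3 in batch 1 share no library. Of 3051 first-intron peaks higher on day 1 in batch 2, 493 were also among the 880 higher on day 3 in batch 1. That is 16.2% of the day 1 list and 56% of the day 3 list. None of the 78 peaks lower on day 3 in batch 1 was called higher on day 1. Of 1110 lower on day 1, 20 were among the 78 lower on day 3 in batch 1, 1.80% and 25.6% of each list. Another 15 of the 1110 were among the 880 higher on day 3 in batch 1. Of the day 1 rises 84.6% were above 0 on day 3 in batch 1, called or not, against 53.3% of all members. Of the day 1 falls 46.8% were below 0 there, against 46.7% of all members, so the falls were no different from the background in sign. The log2 fold changes had a Pearson correlation of 0.35 over 21131 peaks, given as a description.

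Peaks hosted by the predicted locus Gm20388 had 65 of 476 higher (13.7%) and 46 lower (9.66%) on day 3. The shares were 17.3% and 6.14% of all first-intron peaks and 16.4% and 7.39% of all peaks. Across 4 equal classes of GC content, 16.9 to 17.7% of first-intron peaks were higher and 4.85 to 6.87% lower on day 3.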
